A study of Rattus norvegicus with 25 samples.

Results

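The endothelial and blood-brain barrier genes described here are a list of 38 genes that code for junction and surface proteins, receptors, transporters, secreted proteins and transcription factors of brain blood vessel walls. They were taken by symbol from a table of 28909 genes, in which 36 were found; the expression of Pecam1 and Abcb1a was not analysed here. Another 2, Cldn5 and Robo4, did not pass the filter on low counts, so that 34 members were among the 14142 genes tested. The values come from polyadenylated RNA of the striatum of 25 female Sprague Dawley rats, each animal giving 1 library. Every rat had received a unilateral lesion with 6-OHDA, a toxin of dopamine neurons used to model Parkinson's disease, and RNA was taken from the lesioned side. Every rat also received levodopa, the precursor of dopamine, at 6 mg/kg QD; the series title names it with benserazide. The arms were levodopa with trapidil at 7.5 mg/kg BID (10 rats), levodopa with trapidil at 15 mg/kg BID (10 rats) and levodopa alone (5 rats), randomised per the labels, dosed for 14 days and collected on day 15. The age of the rats is not given in the sources used here, and rats without lesion or without levodopa are not part of the comparison. Trapidil, a vasodilator, is known to inhibit phosphodiesterases and to antagonise platelet-derived growth factor.

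Endothelial cells of brain capillaries form a barrier between blood and tissue. They are sealed to each other by tight and adherens junctions, pass few substances between or through themselves, and carry transporters for glucose, amino acids, lactate and hormones instead. Transcription factors of the ETS and SOXF families are known to hold their identity, and vascular growth factor, angiopoietin and Wnt signals from neighbouring cells maintain the vessels and the barrier. In bulk tissue, fewer endothelial cells and less RNA per endothelial cell cannot be told apart.

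Of the 5 members that fell at 15 mg/kg against levodopa alone, 4 had an entry in the RefSeq promoter table of the GRCr8 assembly. These are shown because ETS factors are members of the list. The letters searched for ETS factors were GGAAG. Shorter core letters of these factors were not searched, so a window without GGAAG can still hold them. Each line gives the 250 bases before the annotated start, read along the gene, 5′ to 3′, with GGAAG or its reverse complement CTTCC in capitals. The windows lie at chr6:81619557-81619806 (minus strand, Clec14a), chr2:243014689-243014938 (plus strand, Adgrl4), chr4:176495847-176496096 (minus strand, Slco1a4) and chr2:194812410-194812659 (plus strand, Slc16a1).
Clec14a: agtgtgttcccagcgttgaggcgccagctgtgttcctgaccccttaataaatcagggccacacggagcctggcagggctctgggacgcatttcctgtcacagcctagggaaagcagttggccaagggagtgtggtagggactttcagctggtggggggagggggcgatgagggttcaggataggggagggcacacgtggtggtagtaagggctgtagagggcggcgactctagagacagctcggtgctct
Adgrl4: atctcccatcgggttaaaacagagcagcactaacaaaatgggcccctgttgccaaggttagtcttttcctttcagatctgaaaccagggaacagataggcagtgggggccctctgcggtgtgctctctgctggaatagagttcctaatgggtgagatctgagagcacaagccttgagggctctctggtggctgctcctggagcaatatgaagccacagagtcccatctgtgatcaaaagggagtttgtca
Slco1a4: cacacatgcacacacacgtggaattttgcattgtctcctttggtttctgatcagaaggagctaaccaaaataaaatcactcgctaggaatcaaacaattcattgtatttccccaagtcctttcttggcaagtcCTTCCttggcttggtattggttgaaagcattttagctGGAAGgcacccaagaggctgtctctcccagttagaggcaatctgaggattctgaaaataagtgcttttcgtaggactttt
Slc16a1: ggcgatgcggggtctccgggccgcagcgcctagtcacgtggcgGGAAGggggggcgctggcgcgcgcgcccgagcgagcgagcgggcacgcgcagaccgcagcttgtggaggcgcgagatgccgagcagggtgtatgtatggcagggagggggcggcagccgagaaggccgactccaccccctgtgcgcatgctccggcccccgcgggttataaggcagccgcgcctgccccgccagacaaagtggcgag
The Slco1a4 window held the letters at 2 places and the Slc16a1 window at 1, while the windows of Clec14a and Adgrl4 held them at 0. Of the 38 listed members, 25 had an entry, Cldn5 and Abcb1a among them, and 18 of these windows (72%) held GGAAG on either strand, against 63.3% of all 33469 windows of the same length. The members were counted with 1 window each, while the 33469 windows were not reduced to 1 per gene. The SOX letters ACAAT stood on either strand in 28% of the member windows and in 30% of all windows. The TCF/LEF letters CTTTGA stood in 8% of the member windows and in 13.9% of all windows. These are matches of letters and not binding sites.

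1 library stood apart from the others for these genes, levodopa replicate 2, and the main results are given with and without it. Total gene counts ran from 10838513 (7.5 mg/kg replicate 1) to 20532290, and levodopa replicate 2, with 17219024, lay inside that range. Mitochondrially encoded genes took 17.3% of its counts, the highest share of the 25 libraries. Levels are given as CPM, the gene's reads relative to the TMM-scaled size of the library, which allow a gene to be compared between libraries but not with another gene. The summed level of the 36 members found was 2780 CPM in levodopa replicate 2. It ran from 1529 to 2064 CPM in the 7.5 mg/kg libraries (median 1609), from 1479 to 1762 CPM in the 15 mg/kg libraries (median 1631) and from 1764 to 1861 CPM in the other 4 levodopa libraries. The highest trapidil library in that sum was 7.5 mg/kg replicate 1, the library with the fewest counts. Bsg and Slc2a1 weighed most in the sum, with means of 517 and 238 CPM in the levodopa arm, where the sum had a mean of 1990 CPM.

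Levodopa replicate 2 was the highest of all 25 libraries for 30 of the 34 tested members, and for 19.7% of all tested genes. The exceptions were Cd34, Slc16a1, Bsg and Sox17. Its level over the mean of the other 4 levodopa libraries had a median of 1.73 over the tested members and ran from 1.07 for Slc16a1 to 2.34 for Ramp2, with 25 of 34 above 1.5. Over all tested genes that ratio had a median of 1.00, with 5th and 95th percentiles of 0.563 and 1.88. The coefficient of variation between libraries had a median over members of 14.6% at 7.5 mg/kg, 10.9% at 15 mg/kg and 30.2% in the levodopa arm, where it was 11.1% without replicate 2. The test pools the spread of the 3 arms, so where the levodopa arm varies more, its errors and adjusted p-values can be too small.

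**Figure D1:**
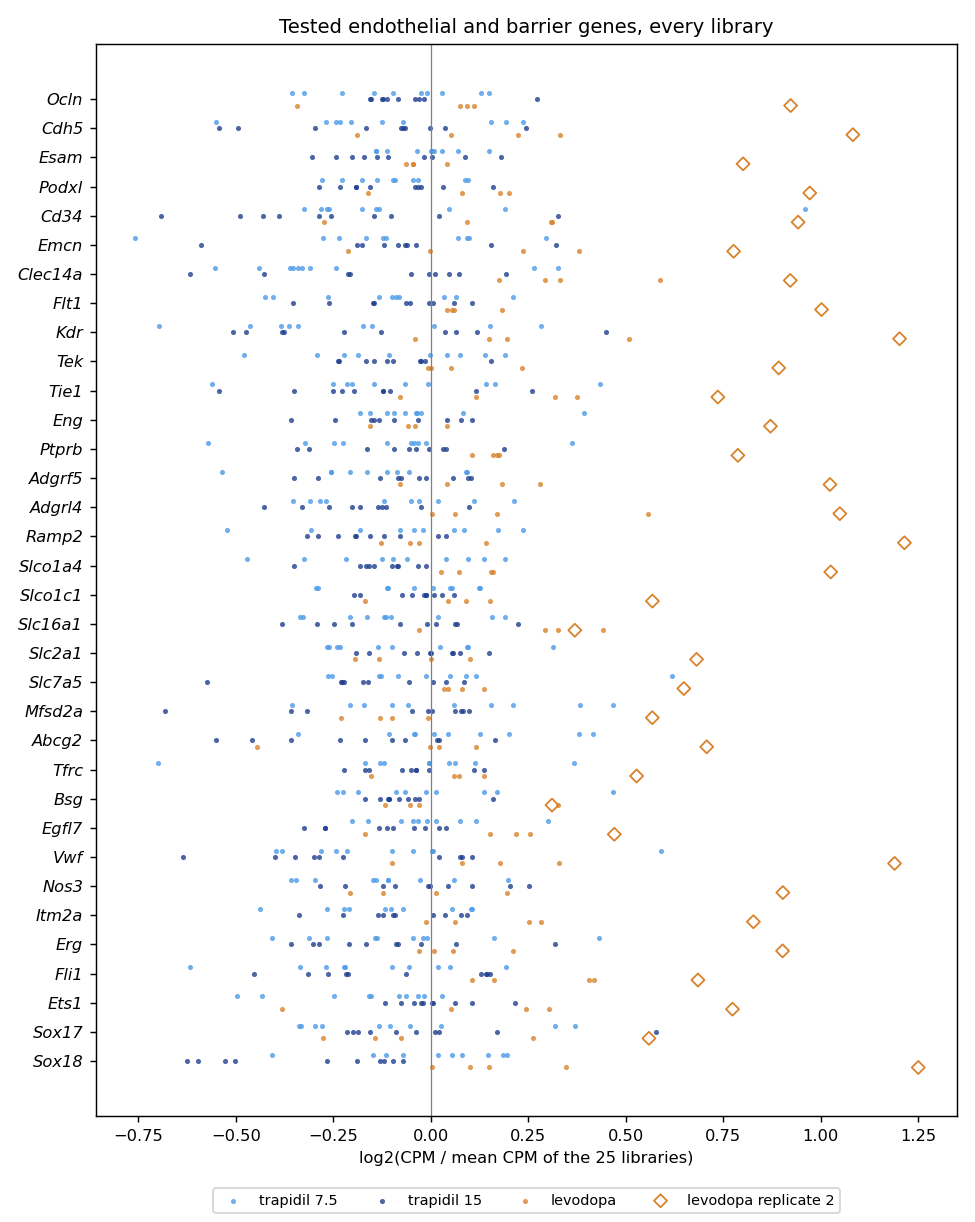
Level of each of the 34 tested members in every library, as log2 of its CPM over its mean CPM in the 25 libraries, with trapidil 7.5 mg/kg, trapidil 15 mg/kg and levodopa libraries on separate lines per gene. The open diamonds (levodopa replicate 2) stand at the right end for 30 of the 34 members, while the other 4 levodopa libraries mix with or lie at the upper end of the trapidil libraries.

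At 15 mg/kg, 5 of the 34 tested members fell against levodopa alone and 0 rose. Those that fell were the transcription factor Sox18, the adhesion receptor Adgrl4, the surface lectin Clec14a and the transporters Slco1a4 and Slc16a1, by 22.2% to 40.2% (edgeR, adjusted p under 0.05 over all genes tested). That is 14.7% of the tested members, where 1% of all tested genes passed in the lower direction. The median log2 fold change was -0.37 over the 34 members, all of them with negative values (Slc2a1 and Mfsd2a were positive with limma-voom), beside a median of 0.00 over all genes tested. Without levodopa replicate 2, 0 members passed with edgeR (0.134% of all genes passed as lower), the median was -0.17 and 30 of 34 were negative. At an unadjusted p under 0.05, 27 members were lower with all libraries, where 11.2% of all genes were, and 12 were lower without levodopa replicate 2, where 6.53% of all genes were. DESeq2 on all libraries counted 16 members as lower, where 3.19% of all genes were, and limma-voom with quality weights 7, where 2.95% were. The count of 5, beside 142 of all genes lower, also moved with single libraries left out. It was 1 without levodopa replicate 3 or without 15 mg/kg replicate 3, beside 8 and 39 of all genes. It was 15 without levodopa replicate 4, 16 without 7.5 mg/kg replicate 1 and 10 without 15 mg/kg replicate 4, beside 515, 451 and 323 of all genes. It was 3 without 7.5 mg/kg replicate 2 or 10, beside 106 of all genes each time. It was 2 without 7.5 mg/kg replicate 4, 7 or 8, beside 106, 105 and 101 of all genes. It was also 2 without any 1 of the 15 mg/kg replicates 1, 2 and 5 to 10, beside 41 to 104 of all genes.

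At 7.5 mg/kg, 0 members passed against levodopa alone with edgeR, where 0.0283% of all genes passed in the lower direction. The median log2 fold change was -0.36, with 33 of 34 members negative. The exception was Mfsd2a, the lipid transporter of the barrier, at 0.01 ± 0.14 (SE). At an unadjusted p under 0.05, 24 members were lower (6.64% of all genes were), DESeq2 counted 6 members as lower (0.352% of all genes were) and limma-voom with quality weights 3 (0.587% were). Without levodopa replicate 2 the median was -0.15, 30 of 34 were negative, 0 passed (0.0634% of all genes passed as lower) and 11 were lower at an unadjusted p under 0.05 (3.18% of all genes were). Without 7.5 mg/kg replicate 1 there were 4 members that passed, beside 55 of all genes lower, and 1 without levodopa replicate 1 or 4, beside 5 and 27 of all genes. Both comparisons share the same 5 levodopa libraries, so each dose's values are given side by side and not as support for each other.

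Set against the levodopa range, every 15 mg/kg library lay below every levodopa library for 2 members, Sox18 and Slco1a4, which is 5.88% of the members beside 0.41% of all tested genes. At 7.5 mg/kg this held for 0 members and for 0.0636% of all tested genes. The median library at 15 mg/kg was below the median of the 5 levodopa libraries for 32 of the 34 members. At 7.5 mg/kg this held for 31 members. Over all tested genes the shares were 49.2% at 15 mg/kg and 49.3% at 7.5 mg/kg. These tallies include levodopa replicate 2 and were not made without it. For Slc2a1 the medians were as near as 218.0 CPM at 15 mg/kg and 218.4 CPM with levodopa alone. Every 15 mg/kg library was below the mean of the 4 levodopa libraries other than replicate 2 for 10 members (6.14% of all tested genes), and every 7.5 mg/kg library was for 7 (2.03% of all tested genes).

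**Figure D2:**
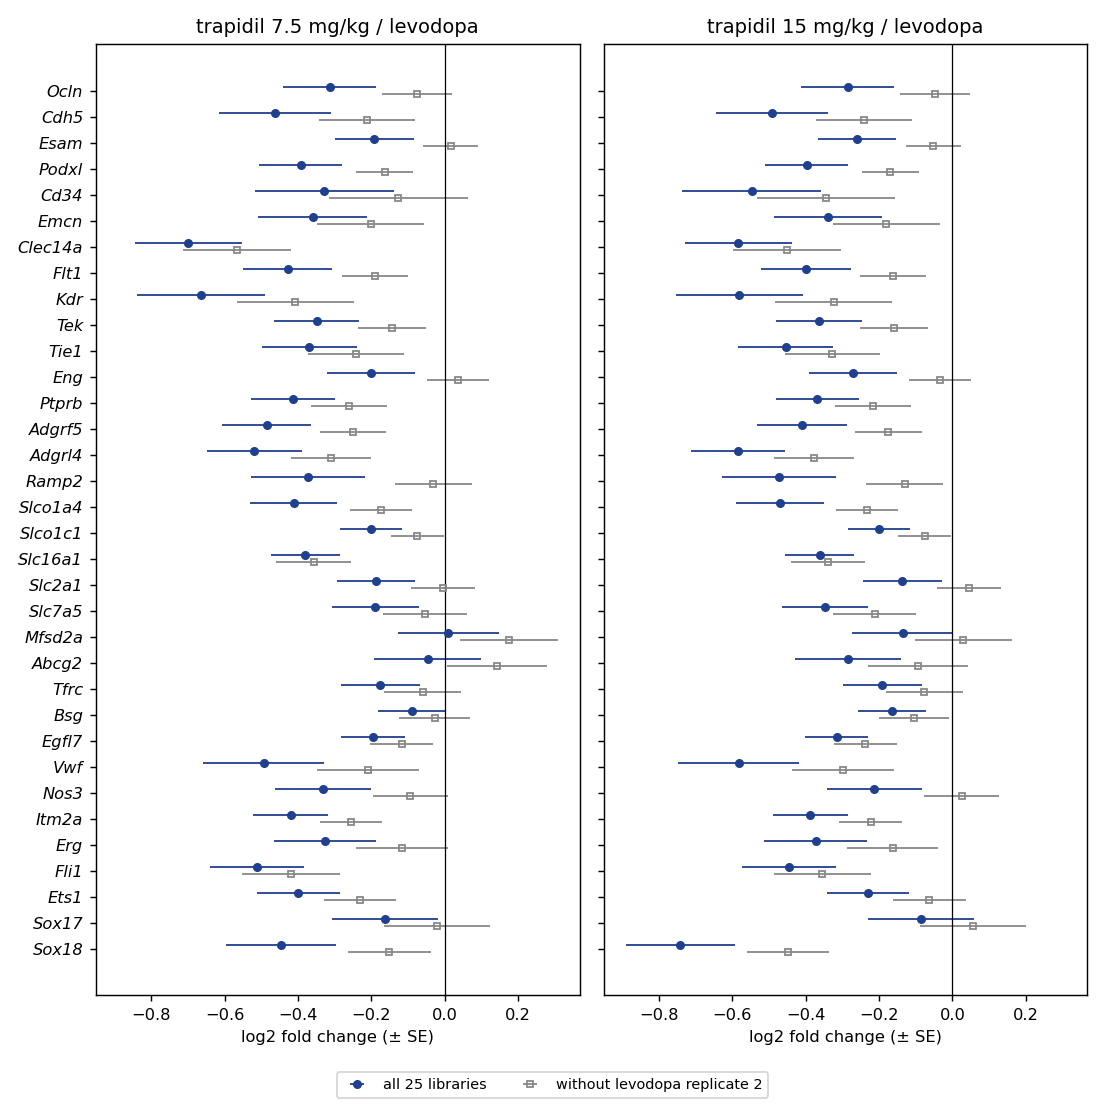
Log2 fold change (± SE, edgeR) of the 34 tested members for trapidil 7.5 mg/kg over levodopa (left) and trapidil 15 mg/kg over levodopa (right), with all 25 libraries (filled circles) and without levodopa replicate 2 (open squares). Filled circles lie left of 0 for 33 members at 7.5 mg/kg and for all 34 at 15 mg/kg, and every open square lies to the right of its circle, with 30 squares left of 0 in each panel.

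Without levodopa replicate 2 the median log2 fold changes at 7.5 and 15 mg/kg were -0.16 and -0.18 for junction and surface proteins, -0.24 and -0.18 for receptors, and -0.05 and -0.09 for transporters. They were -0.16 and -0.23 for secreted proteins and enzymes and -0.15 and -0.16 for transcription factors. Single members then ran from -0.57 (Clec14a) to 0.17 (Mfsd2a) at 7.5 mg/kg and from -0.45 (Clec14a) to 0.06 (Sox17) at 15 mg/kg. None passed with edgeR.

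Of the junction and surface proteins, 7 of 9 listed were tested, and 1, Clec14a, fell at 15 mg/kg. The group's median log2 fold change was -0.36 at 7.5 mg/kg and -0.40 at 15 mg/kg. Clec14a, a C-type lectin of the endothelial surface that takes part in vessel sprouting, was at a lowest of 3.48, a median of 5.24 and a highest of 6.10 CPM in the 15 mg/kg libraries, against 6.72, 10.1, 6.03, 6.54 and 8.02 CPM in levodopa replicates 1 to 5. Of the 10 libraries at 15 mg/kg, 9 lay below the lowest levodopa library, and the highest lay just above it. Over levodopa it came to -0.58 ± 0.15 on the log2 scale (SE; edgeR adjusted p = 0.0439; 10 of 10 libraries below the levodopa mean) and to -0.45 ± 0.15 without levodopa replicate 2 (adjusted p = 0.2). With 7.5 mg/kg it was at 3.64, 4.23 and 6.69 CPM (lowest, median, highest), with 8 of 10 libraries below every levodopa library. Its value there of -0.70 ± 0.15 missed the threshold with edgeR (adjusted p = 0.0856). At that dose Clec14a passed with DESeq2 and with limma-voom. It also passed with edgeR when levodopa replicate 2 and 7.5 mg/kg replicate 1 were both left out. Its call at 15 mg/kg was lost in 16 of the 25 fits that each left out 1 library: levodopa replicates 1, 2, 3 or 5, 7.5 mg/kg replicates 4, 7 or 8, or any 15 mg/kg replicate except 4, with log2 fold changes from -0.65 to -0.45. It was also lost with no filter on low counts.

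Cdh5, the cadherin of endothelial adherens junctions, was at 11.1, 15.4 and 19.2 CPM (lowest, median, highest) at 15 mg/kg, against 14.2, 34.3, 18.9, 20.4 and 16.8 CPM in levodopa replicates 1 to 5. The arms overlapped, with 3 of 10 libraries at 15 mg/kg below every levodopa library. Over levodopa it came to -0.49 ± 0.15 on the log2 scale (SE; edgeR adjusted p = 0.0796), and to -0.24 ± 0.13 without levodopa replicate 2. Ocln and Esam, components of tight junctions, had log2 fold changes of -0.29 ± 0.13 and -0.26 ± 0.11 at 15 mg/kg, which came to -0.05 ± 0.10 and -0.05 ± 0.07 without levodopa replicate 2. The sialomucins Podxl, Cd34 and Emcn had values of -0.40 ± 0.11, -0.55 ± 0.19 and -0.34 ± 0.15, none of which passed with edgeR. Cdh5 and Podxl passed with DESeq2 at 15 mg/kg, and Ocln, Esam, Cd34 and Emcn did not. Cldn5, the main claudin of brain endothelial tight junctions, was listed at 0 counts in all 25 libraries. Whether the annotation behind the counts covered Cldn5 is not given in the sources used here, so the 0 is not read as a level. Ocln, Cdh5 and the other tested members had counts in every library.

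**Figure D3:**
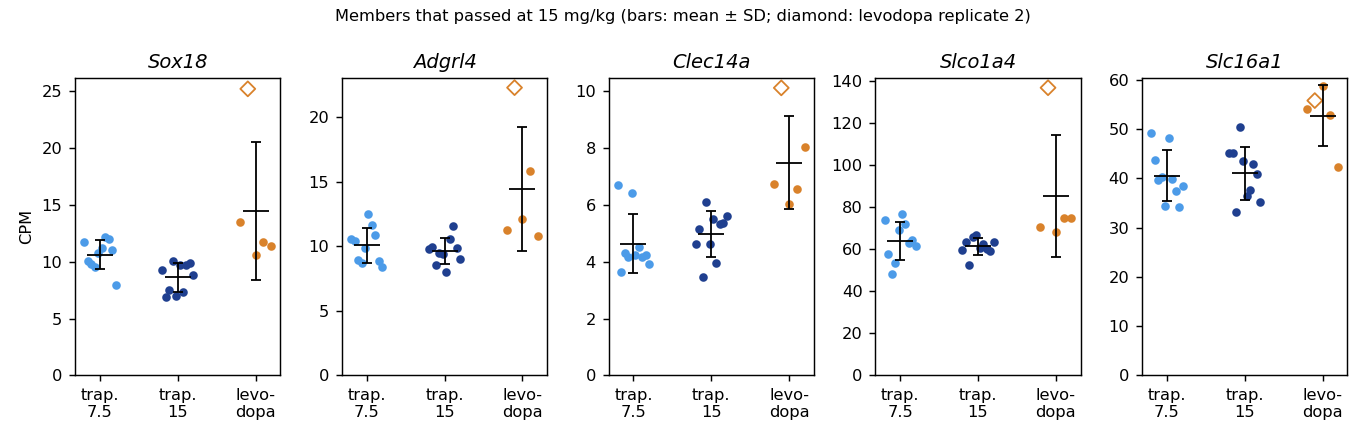
CPM per library of the 5 members that fell at 15 mg/kg, with trapidil 7.5 mg/kg, trapidil 15 mg/kg and levodopa from left to right; points are libraries, bars the mean ± SD (n = 10, 10 and 5), and the open diamond is levodopa replicate 2. The 15 mg/kg points of Sox18 and Slco1a4 all lie under the levodopa points, and for Slc16a1 the diamond lies among the other levodopa points.

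Among receptors and signalling proteins, 9 of 10 listed were tested and 1, Adgrl4, fell at 15 mg/kg. The median was -0.41 at both doses, and every tested member had a negative value at both. Adgrl4, an adhesion G protein-coupled receptor of endothelium, was at 8.01, 9.65 and 11.5 CPM (lowest, median, highest) at 15 mg/kg, against 11.2, 22.3, 12.1, 15.8 and 10.8 CPM in levodopa replicates 1 to 5. All but 1 of the 15 mg/kg libraries lay below the lowest levodopa library. Its difference from levodopa was -0.59 ± 0.13 on the log2 scale (SE; edgeR adjusted p = 0.0267; 10 of 10 libraries below the levodopa mean), and -0.38 ± 0.11 without levodopa replicate 2 (adjusted p = 0.158). The call was also lost without levodopa replicate 3 and without 15 mg/kg replicate 3, with values between -0.64 and -0.38 over the 3 fits. The 7.5 mg/kg value was -0.52 ± 0.13 (adjusted p = 0.135), with a range of 8.43 to 12.5 CPM.

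Kdr, the main signalling receptor of vascular endothelial growth factor, was at 7.89, 9.95 and 15.3 CPM (lowest, median, highest) at 15 mg/kg, against 12.5, 25.8, 10.9, 16.0 and 12.9 CPM in levodopa replicates 1 to 5. Its arms overlapped, and the log2 fold change of -0.58 ± 0.17 (SE; edgeR adjusted p = 0.075) was -0.32 ± 0.16 without levodopa replicate 2. Kdr at 7.5 mg/kg had the second lowest value of the members, -0.66 ± 0.17 (adjusted p = 0.15). Flt1, the other receptor for that factor, had -0.40 ± 0.12 at 15 mg/kg and -0.43 ± 0.12 at 7.5 mg/kg. The angiopoietin receptor Tek and its relative Tie1 had -0.36 ± 0.12 and -0.45 ± 0.13 at 15 mg/kg, and Ptprb, the phosphatase that acts on Tek, had -0.37 ± 0.11. Eng, a co-receptor of the transforming growth factor β family, was at -0.27 ± 0.12, and at -0.03 ± 0.08 without levodopa replicate 2. Adgrf5, an adhesion receptor, and Ramp2, a partner of the adrenomedullin receptor, had -0.41 ± 0.12 and -0.47 ± 0.16. For Ramp2 the value without levodopa replicate 2 was -0.13 ± 0.10, the member with the highest ratio in that library. At 15 mg/kg Kdr, Flt1, Tie1, Ptprb and Adgrf5 passed with DESeq2, and Tie1 also with limma-voom. Tek, Eng and Ramp2 passed with neither. At 7.5 mg/kg Adgrf5 and Adgrl4 passed with DESeq2. Robo4, a guidance receptor of endothelium, had 3 counts in all 25 libraries together and was not tested; how far the annotation covered it is likewise not given, and no level is read from them.

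Transporters had the smallest median difference of the 5 groups, -0.19 at 7.5 mg/kg and -0.20 at 15 mg/kg over 9 tested of 10 listed, and 2 of them fell at 15 mg/kg. Slco1a4, an organic anion transporter of the barrier, was at 52.7, 61.7 and 66.6 CPM (lowest, median, highest) at 15 mg/kg, against 70.7, 137, 68.4, 74.8 and 75.1 CPM in levodopa replicates 1 to 5. The 2 ranges did not overlap. The lowest levodopa library was replicate 3, so leaving out replicate 2, the highest, cannot change this. On the log2 scale the difference was -0.47 ± 0.12 (SE; edgeR adjusted p = 0.0463), and -0.23 ± 0.08 without levodopa replicate 2 (adjusted p = 0.249). The 7.5 mg/kg range of 48.5 to 76.6 CPM overlapped that of levodopa, and the value was -0.41 ± 0.12 (adjusted p = 0.2). The call at 15 mg/kg was lost in 16 of 25 fits with 1 library left out: levodopa replicates 2 or 3, 7.5 mg/kg replicates 2, 4, 7, 8 or 10, or any 15 mg/kg replicate except 4, with values from -0.54 to -0.23. It was also lost with no filter on low counts and with limma-voom. Slco1a4 belongs to a family of close relatives, so how reads were divided among them is uncertain.

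Slc16a1, the monocarboxylate transporter that carries lactate and ketone bodies, was the 1 of the 5 whose level in levodopa replicate 2 lay within that of the other levodopa libraries. It was at 33.1, 41.9 and 50.4 CPM (lowest, median, highest) at 15 mg/kg, against 54.1, 55.8, 58.6, 52.9 and 42.3 CPM in levodopa replicates 1 to 5. Of the levodopa libraries 4 lay above every 15 mg/kg library, and replicate 5 lay among them. This was a difference of -0.36 ± 0.09 on the log2 scale (SE; edgeR adjusted p = 0.049) and -0.34 ± 0.10 without levodopa replicate 2, where the adjusted p was 0.172 with 4 levodopa libraries left. In the 7.5 mg/kg arm it was at 34.2, 39.8 and 49.2 CPM, a value of -0.38 ± 0.09 (adjusted p = 0.135), and -0.36 ± 0.10 without levodopa replicate 2. The call was lost in 18 of 25 fits with 1 library left out, those without levodopa replicates 1, 2 or 3, 7.5 mg/kg replicates 2, 3, 4, 7, 8 or 10, or any 15 mg/kg replicate except 4, with values from -0.38 to -0.32. It was also lost with no filter on low counts and with upper-quartile factors. At 7.5 mg/kg Slc16a1 passed with DESeq2 and with limma-voom. The gene is also known from oligodendrocytes and astrocytes.

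The remaining transporters lay nearer to levodopa alone. Slc2a1, the glucose transporter of the barrier, was at 191, 218 and 242 CPM (lowest, median, highest) at 15 mg/kg, against 234, 350, 199, 218 and 191 CPM in levodopa replicates 1 to 5, with a log2 fold change of -0.14 ± 0.11 that was 0.05 ± 0.09 without levodopa replicate 2. Mfsd2a had -0.14 ± 0.14 at 15 mg/kg and 0.03 ± 0.13 without that library. Abcg2, a drug efflux pump, had -0.28 ± 0.14, Slc7a5, the large neutral amino acid transporter that also carries levodopa, -0.35 ± 0.12, Slco1c1, which carries thyroid hormone, -0.20 ± 0.08, Tfrc, the transferrin receptor, -0.19 ± 0.11, and Bsg, the chaperone of Slc16a1, -0.16 ± 0.09. None of these passed at either dose with edgeR, DESeq2 or limma-voom.

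Of the secreted proteins, enzymes and other genes, 4 of 4 listed were tested and 0 fell with edgeR. With edgeR 3 of them were lower at an unadjusted p under 0.05 at 15 mg/kg, where 11.2% of all genes were. At 7.5 mg/kg 4 of them were, beside 6.64% of all genes. Without levodopa replicate 2 these counts were 3 at 15 mg/kg and 1 at 7.5 mg/kg, beside 6.53% and 3.18% of all genes. DESeq2 counted Egfl7, Itm2a and Vwf at 15 mg/kg and Itm2a at 7.5 mg/kg, and limma-voom counted Egfl7 at 15 mg/kg. The group's median was -0.38 at 7.5 mg/kg and -0.35 at 15 mg/kg. Itm2a, a membrane protein enriched in brain endothelium, came nearest. It was at 58.3, 69.0 and 78.6 CPM (lowest, median, highest) at 15 mg/kg, against 73.1, 131, 76.9, 89.7 and 87.7 CPM in levodopa replicates 1 to 5. The arms overlapped, with 6 of 10 libraries at 15 mg/kg below every levodopa library, and the log2 difference was -0.39 ± 0.10 (SE; edgeR adjusted p = 0.0527). Without levodopa replicate 2 it was -0.22 ± 0.09. Egfl7, a secreted protein of vessels, Vwf, the clotting factor stored in endothelium, and Nos3, the endothelial nitric oxide synthase, had -0.32 ± 0.09, -0.58 ± 0.16 and -0.21 ± 0.13 at 15 mg/kg.

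Of the 5 transcription factors, 1, Sox18, fell at 15 mg/kg, and the median was -0.40 at 7.5 mg/kg and -0.37 at 15 mg/kg. Sox18, a SOXF factor of vessel and lymphatic identity, had the largest change of the 34 tested members at that dose. It was at 6.87, 9.06 and 10.1 CPM (lowest, median, highest) at 15 mg/kg, against 13.5, 25.2, 10.6, 11.8 and 11.4 CPM in levodopa replicates 1 to 5. The highest 15 mg/kg library lay below the lowest levodopa library, replicate 3. Against levodopa its log2 value was -0.74 ± 0.15 (SE; edgeR adjusted p = 0.0217), and -0.45 ± 0.11 without levodopa replicate 2 (adjusted p = 0.105), the 1 library of 25 whose removal ended its call. At 7.5 mg/kg it was at 7.99, 10.9 and 12.2 CPM, with a value of -0.44 ± 0.15 (adjusted p = 0.287) that was -0.15 ± 0.11 without levodopa replicate 2.

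The other factors did not pass with edgeR; Fli1 passed with DESeq2 and with limma-voom at both doses. The ETS factors Erg, Fli1 and Ets1 had -0.37 ± 0.14, -0.45 ± 0.13 and -0.23 ± 0.11 at 15 mg/kg. Fli1 had -0.51 ± 0.13 at 7.5 mg/kg, and without levodopa replicate 2 its values were -0.42 ± 0.13 at 7.5 mg/kg and -0.35 ± 0.13 at 15 mg/kg. Sox17, the relative of Sox18, was at 7.29, 8.09 and 12.6 CPM (lowest, median, highest) at 15 mg/kg, against 7.66, 12.5, 6.98, 8.02 and 10.1 CPM in levodopa replicates 1 to 5, a value of -0.09 ± 0.14. Sox18 and Sox17 thus had different values at 15 mg/kg, and the difference between the 2 genes was not tested.

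Between the doses, 0 members passed in either direction with edgeR, where 0% of all tested genes were lower and 0.0283% higher at 15 mg/kg. With DESeq2 and limma-voom the count of members was also 0. At an unadjusted p under 0.05, 1 member was lower (2.14% of all genes were), Sox18, with a log2 fold change of -0.30 ± 0.13 at 15 mg/kg over 7.5 mg/kg (edgeR adjusted p = 0.999). The values of the 34 members ran from -0.30 for Sox18 to 0.17 for Ets1, with a median of -0.02 and 19 negative. The counts against levodopa, 5 members at 15 mg/kg and 0 at 7.5 mg/kg, are thus not shown to differ between the doses.

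Other genes of the same biology were looked at as lists, whose counts at 15 mg/kg are given beside the 1% of all genes that passed as lower. Of 17 tested genes of vascular growth factor, angiopoietin, apelin and Notch signals, 2 fell. Aplnr, the apelin receptor of vessels, was at 1.52 to 2.76 CPM (median 2.03) at 15 mg/kg, against 4.00 to 7.65 CPM (median 4.75) with levodopa alone, a log2 fold change of -1.20 ± 0.17 (SE; edgeR adjusted p = 0.000927) that also passed without levodopa replicate 2 (adjusted p = 0.0076). Jag1, a Notch ligand, was at 9.12 to 13.7 CPM (median 12.6) at 15 mg/kg, against 14.1 to 19.2 CPM (median 16.0) with levodopa alone, a value of -0.46 ± 0.10 (adjusted p = 0.0246) that was -0.51 without levodopa replicate 2 (adjusted p = 0.0327). Both thus kept their calls without that library, and the 2 arms did not overlap for either. The list's median was -0.16, and -0.03 without levodopa replicate 2.

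Of 17 tested genes of barrier Wnt signalling 1 fell, Foxq1, a forkhead factor, at -1.13 ± 0.26 (SE; edgeR adjusted p = 0.0319, and 0.112 without levodopa replicate 2). Of 8 tested genes of arterial endothelium 1 fell, Tspan2, a tetraspanin also known from oligodendrocytes, at -0.60 ± 0.11 (adjusted p = 0.0131, and 0.0628 without that library). With edgeR 0 of 20 other barrier transporters, 0 of 6 leukocyte adhesion genes and 0 of 7 venous genes passed. At an unadjusted p under 0.05, 4 transporters were lower and 2 higher, and 3 of the adhesion and 2 of the venous genes were lower, where 11.2% of all genes were lower and 8.26% higher. Without levodopa replicate 2, 0 genes of each of these lists were lower at an unadjusted p under 0.05, where 6.53% of all genes were. The nearest in these lists were Abcb1b, an efflux pump close in sequence to Abcb1a, so that its counts are uncertain (-0.34 ± 0.11, adjusted p = 0.0891), Lrg1, a secreted glycoprotein (-0.89 ± 0.27, adjusted p = 0.0752), and Ephb4, the ephrin receptor of veins (-0.51 ± 0.15, adjusted p = 0.0736). At 7.5 mg/kg 0 genes of these 6 lists passed against levodopa alone with edgeR, and between 2 and 5 genes of each were lower at an unadjusted p under 0.05, where 6.64% of all genes were. Without levodopa replicate 2, between 0 and 3 genes of each were lower at that dose, where 3.18% of all genes were.

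Markers of several other cell types also stood apart in levodopa replicate 2. In that library 12 of 14 tested pericyte and smooth muscle markers, 8 of 10 fibroblast, 7 of 9 astrocyte, 5 of 8 microglial and 7 of 9 oligodendrocyte markers were the highest of the 25 libraries, and 0 of 9 spiny projection neuron markers. Its summed level over the mean of the other levodopa libraries was 1.61 for pericyte and smooth muscle, 1.70 for fibroblast and 1.80 for astrocyte markers. It was 1.58 for microglial, 1.60 for oligodendrocyte and 2.08 for red blood cell markers. These sums follow the genes with the most reads. The median ratio of single tested genes was 1.64 for pericyte and smooth muscle, 1.70 for fibroblast and 1.57 for astrocyte markers. For microglial, oligodendrocyte and red blood cell markers it was 1.59, 1.37 and 2.03. Of the red blood cell markers, 0 of 4 tested were the highest of the 25 in levodopa replicate 2. Their sum was 854 CPM, below the 1117 CPM of the highest 7.5 mg/kg library. The ratio of the sums was 0.625 for spiny projection neuron and 0.488 for cortical projection neuron markers. The cortical sum in levodopa replicate 2, 7.59 CPM, lay within the 4.95 to 44.2 CPM of the other levodopa libraries. For choroid plexus markers the ratio was 10.3, with sums of 28.1 CPM in levodopa replicate 2 and 0.551 to 7.92 CPM in the other levodopa libraries. Of these markers 1 of 4 tested was the highest of the 25. The log2 ratios of single genes were 6.65 for Ttr, 1.90 for Clic6, 0.295 for Folr1 and -0.162 for Kl. The summed pericyte and smooth muscle level was 211 to 304 CPM at 7.5 mg/kg, 206 to 293 CPM at 15 mg/kg and 209 to 425 CPM with levodopa alone. That of the fibroblast list was 224 to 378 CPM at 7.5 mg/kg, 207 to 305 CPM at 15 mg/kg and 287 to 524 CPM with levodopa alone. For astrocyte markers it was 3176 to 4824 CPM at 7.5 mg/kg, 2850 to 4386 CPM at 15 mg/kg and 3537 to 6844 CPM with levodopa alone, and for microglial markers 343 to 600 CPM at 7.5 mg/kg, 351 to 448 CPM at 15 mg/kg and 392 to 682 CPM with levodopa alone. The spiny projection neuron list summed to 12410 to 15832 CPM at 7.5 mg/kg, 11775 to 15467 CPM at 15 mg/kg and 8904 to 16032 CPM with levodopa alone. The fibroblast marker Col1a2 was listed at 0 in all 25 libraries, which is not read as a level for the reason given for Cldn5; the fibroblast collagens Col1a1 and Col3a1 had 70 to 228 and 60 to 231 counts per library.

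The oligodendrocyte list, 9 of 9 tested, had 5 genes that fell at 15 mg/kg with edgeR, and 0 without levodopa replicate 2, when 8 were still lower at an unadjusted p under 0.05 (6.53% of all genes were). Its summed level was 7194 to 15824 CPM at 7.5 mg/kg, 6358 to 13430 CPM at 15 mg/kg and 10437 to 19029 CPM with levodopa alone. The oligodendrocyte list's median log2 fold change at 15 mg/kg was -0.60, and -0.50 without levodopa replicate 2. Of the pericyte and smooth muscle list 0 of 14 passed at 15 mg/kg with edgeR (4 were lower at an unadjusted p under 0.05, where 11.2% of all genes were), with a median of -0.20 that was -0.03 without levodopa replicate 2. Of the fibroblast, astrocyte and microglial lists 0 genes passed at 15 mg/kg with edgeR. At an unadjusted p under 0.05, 4 of 10, 3 of 9 and 4 of 8 were lower. Their medians were -0.39, -0.15 and -0.28, and -0.07, 0.01 and -0.08 without levodopa replicate 2. The part of these cell type levels in the values of the endothelial members was not tested.

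**Figure D4:**
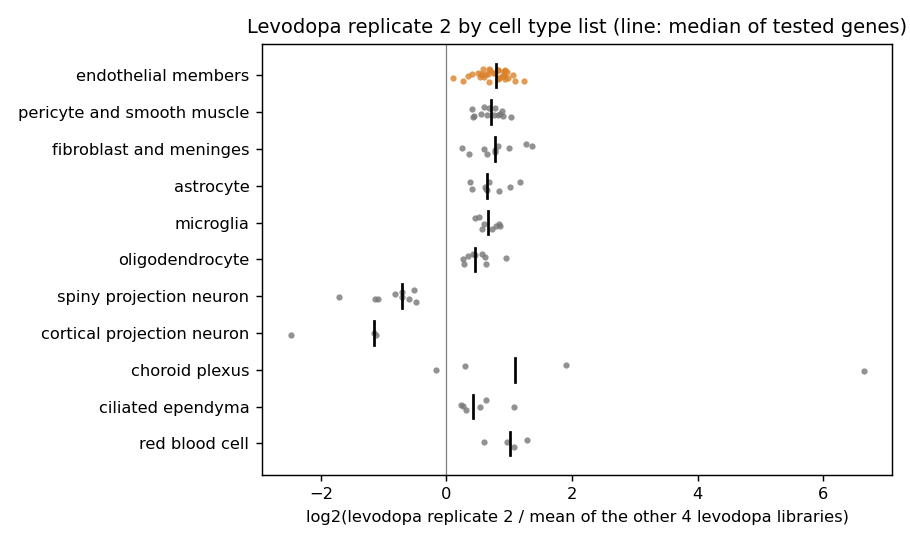
Log2 ratio of levodopa replicate 2 over the mean of the other 4 levodopa libraries for each tested gene (points) of the endothelial members and of 10 cell type marker lists, with the list's median (line). The endothelial, pericyte, fibroblast and glial points lie right of 0, and the points of the spiny projection and cortical projection neuron lists lie left of it.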

How the data were processed

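Striatal polyadenylated RNA of 25 rats was sequenced, and the authors deposited raw read counts per gene for all 25 libraries in 1 table. Per the submitters' processing notes, the tools were FastQC for read quality, STAR for alignment and HTSeq for counting, with the Rnor_6.0 build; versions, annotation and strand setting are not given in the sources used here. Reads of overlapping and antisense genes therefore cannot be told apart, and close gene copies are uncertain. Arms were read from the labels. No batch or date is given in the sources used here. No pair of libraries of 1 arm agreed within sampling noise (lowest chi-square per degree of freedom 4.92 among 7.5 mg/kg, 4.83 among 15 mg/kg and 12.0 among levodopa libraries).

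Genes were filtered with filterByExpr (14142 of 28909 kept), scaled by TMM and tested with edgeR 4.0.16 (R 4.3.3) by the quasi-likelihood test over all 25 libraries with arm as the factor. Tests were two-sided, and p-values were adjusted by Benjamini-Hochberg over all genes tested, with a threshold of 0.05. Standard errors were derived by dividing each log2 fold change by the root of its F statistic. The steps were tested on simulated data. Whether libraries of 1 arm came from separate animals is taken from the labels' account of randomised rats. DESeq2 1.42.0 and limma 3.58.1 were alternatives.

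The members, the other gene lists and the cell type lists were chosen with earlier results of these data known. Members described by library are those that passed in any comparison, the member with the smallest p at 15 mg/kg in each role group, and Cldn5, Pecam1, Cdh5 and Kdr, of which the expression of Pecam1 was not analysed here; from other lists, the genes that passed or, failing that, the 1 with the smallest p. Slc2a1 and Sox17 are described by library outside that rule and were chosen after their values were seen. 1 further list is not reported here. Promoter windows are RefSeq's on GRCr8.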

Additional observations from a re-analysis of the deposited data

Results flagged for a closer look

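In 102 groups (34 members in 3 arms), 29 had a highest or lowest library whose gap to its neighbour was large for the range of its group; chance gives about 1 in 20 groups, and the members are not independent of each other. Levodopa replicate 2 was that library in 18. Its levels were 30.1 CPM for Ocln, 33.1 CPM for Esam, 91.3 CPM for Podxl, 152 CPM for Flt1, 45.2 CPM for Tek, 66.1 CPM for Eng, 51.6 CPM for Ptprb, 148 CPM for Adgrf5 and 22.4 CPM for Ramp2. They were 137 CPM for Slco1a4, 350.0 CPM for Slc2a1, 112 CPM for Slc7a5, 34.5 CPM for Mfsd2a, 158 CPM for Vwf, 27.6 CPM for Nos3, 131 CPM for Itm2a, 17.1 CPM for Erg and 25.2 CPM for Sox18, each the highest of its arm.

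The 7.5 mg/kg replicate 1, the library with the fewest counts, was high in its arm for Cd34 (11.9 CPM), Eng (47.5 CPM), Ptprb (38.4 CPM), Slc7a5 (109.7 CPM), Bsg (667 CPM) and Vwf (104 CPM). In the 15 mg/kg arm, replicate 2 was high for Ocln (19.2 CPM) and Tek (27.1 CPM), replicate 4 was high for Bsg (539 CPM) and Sox17 (12.6 CPM), and replicate 3 was low for Slco1a4 (52.7 CPM).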

How the results depend on the processing

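For endothelial members called at 7.5 mg/kg against levodopa (0), the count was 1 at a threshold of 0.10, 6 with DESeq2, 3 with limma-voom and 1 without both levodopa replicate 2 and 7.5 mg/kg replicate 1; it ran from 0 to 4 with 1 library left out. For endothelial members called at 15 mg/kg (5), it was 2 with no filter, 18 at a threshold of 0.10, 16 with DESeq2 and 0 without both libraries, and ran from 0 to 16 with 1 library left out. For all genes called at 7.5 mg/kg (4), it was 7 with no filter, 11 at 0.10, 53 with DESeq2, 102 with limma-voom, 1 with only the 2 arms and 27 without both libraries, and ran from 1 to 70 with 1 library left out. For all genes called at 15 mg/kg (185), it was 862 at 0.10, 655 with DESeq2, 715 with limma-voom, 448 with only the 2 arms and 76 without both libraries, and ran from 9 to 894 with 1 library left out. For all genes called at 15 against 7.5 mg/kg (4), it was 13 with limma-voom and 9 without both libraries, and ran from 4 to 8 with 1 library left out. RLE and upper-quartile factors kept these counts within 1.5 times. The cause of these moves was not tested.

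With the replicate number as a replicate block, 0 members and 0 genes passed at either dose against levodopa. The numbers did not pair the libraries: correlations of same-numbered libraries ran from -0.24 to 0.16, -0.35 to 0.21 and -0.22 to 0.14 (7.5 mg/kg against levodopa, 15 mg/kg against levodopa, 15 against 7.5 mg/kg), and 0, 1 and 0 libraries correlated best with their own number.

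Some members that did not pass had a log2 fold change whose sign changed with the setting. At 7.5 mg/kg, Abcg2 was at 0.044 with limma-voom, 0.011 with the replicate block and 0.11 without both libraries, and Esam at 0.029 without both libraries. With 1 library left out, the 7.5 mg/kg values ran from -0.25 to 0.016 for Esam, from -0.28 to 0.036 for Eng, from -0.052 to 0.17 for Mfsd2a and from -0.16 to 0.14 for Abcg2. At 15 mg/kg, limma-voom gave 0.056 for Slc2a1 and 0.014 for Mfsd2a, and leaving out both libraries gave 0.045 for Slc2a1, 0.030 for Mfsd2a, 0.026 for Nos3 and 0.056 for Sox17. With 1 library left out, the 15 mg/kg values ran from -0.20 to 0.045 for Slc2a1, from -0.20 to 0.029 for Mfsd2a, from -0.30 to 0.025 for Nos3 and from -0.16 to 0.056 for Sox17. Each positive end came without levodopa replicate 2. The tested members with the fewest reads were Fli1, with at least 45 reads in every library, and Clec14a, with at least 52.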
